A study of Mus musculus with 4 samples.

Results

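Perineurial-like cells of the neonatal mouse sciatic nerve are described here from 2 single-cell libraries. They were selected on measured values, as cell barcodes with at least 2 transcripts over at least 2 of the 5 genes Slc2a1, Casq2, Msln, Cldn1 and Itgb4, and with no transcript of Pecam1, Sox10, Ptprc, Mag or Prx. Transcripts were counted as unique molecular identifiers (UMIs), and a barcode had to hold at least 200 detected genes and at most 10% mitochondrial UMIs. The rule found 119 cells among 8042 filtered neonatal barcodes, 35 of 2306 in the first library (1.52%, interval 1.06 to 2.10) and 84 of 5736 in the second (1.46%, interval 1.17 to 1.81). The series held 12268 filtered barcodes in all.

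The perineurium is the sleeve of flattened cells around each nerve fascicle. Its cells are joined by tight junctions, are covered by basement membrane on both faces and, with the endothelium of the endoneurial vessels, form the blood-nerve barrier, while glucose and lactate pass by transporters. Desert hedgehog from Schwann cells is known to be needed for the perineurium to form, and the barrier is known to tighten after birth.

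Cells of the sciatic nerve of Wildtype CD1 mice were profiled by Drop-seq, which captures single cells in droplets with barcoded beads, to compare the growth factors made by different nerve cells. The first neonatal library came from nerves at P3 to P4, and its cells were sorted by FACS for bright Hoechst and absent propidium iodide staining, which keeps nucleated living cells. The second came from nerves at P2 to P3 and was cleared with myelin removal beads. An uninjured adult nerve library and a library of the distal nerve segment 3 days post-injury (3 DPI), both from adult mice and both cleared with beads, were used for comparison, and all mice were without a transgene in the labels. The sources used here do not give how many animals were pooled in a library. Each library was 1 sample, so condition, age, preparation and library cannot be told apart, no test was made between them, and intervals cover counting error only.

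The libraries held between 4513814 and 8123103 UMIs. Their barcodes overlapped by at most 3 between any 2 libraries, and no barcode of a perineurial-like cell was among them. The perineurial-like cells held 159085 UMIs in the FACS library and 195939 in the bead library, with medians of 3976 UMIs and 1884 genes per cell and of 2048 UMIs and 1172 genes. They were therefore deeper than the filtered barcodes as a whole, with medians of 1606.5 and 1009.5 UMIs. The level of a gene is given as counts per 1000000 (CPM), its UMIs summed over the cells of a class and divided by all UMIs of that class, with exact Poisson intervals at 95%. Shares of cells have exact Clopper-Pearson intervals at 95%. UMIs are not scaled to transcript length, so levels are compared between cells and not between genes.

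The selected cells were close to the mesenchymal cells of the nerve in their overall makeup. For lists of 5 cell types, the share of a cell's UMIs in a list was divided by the mean share over the filtered barcodes of its library. On this relative measure a mesenchymal list of 6 genes, with Pdgfra and fibrillar collagens, led in 32 of 35 FACS cells and 81 of 84 bead cells. The Schwann markers Sox10, Cdh19 and Gfra3 and the endothelial markers Pecam1 and Cldn5 were at 0 UMIs in both libraries, of which the rule itself set Sox10 and Pecam1 to 0. The 4 keratinocyte markers had no UMI in either library. Of the 10 Schwann markers, 6 were detected in the FACS cells and 7 in the bead cells. The endoneurial rule given below was also met by 3 and 10 of the perineurial-like cells, and the epineurial rule by 0 and 0.

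Most cells passed the rule narrowly. In the FACS library 22 cells and in the bead library 54 cells had exactly 2 of the 5 genes, and all 5 were found in 1 cell of each library. The pair Casq2 and Cldn1 was present together in 25 of 35 and in 41 of 84 cells. Cldn1 encodes claudin-1, a sealing protein of tight junctions, and was found in 88.6% and 83.3% of the cells. Casq2, a calcium store protein of the sarcoplasmic reticulum, was found in 80% and 61.9%. Slc2a1, the glucose transporter GLUT1, was found in 34.3% and 41.7%, Itgb4, the laminin-binding integrin beta 4 subunit, in 31.4% and 47.6%, and Msln, the surface protein mesothelin, in 17.1% and 11.9%. These shares were set by the rule. In the genome build mm10 named in the submitters' processing notes, Slc2a1 lies at chr4:119108711-119137983, Casq2 at chr3:102086415-102146514, Msln at chr17:25748613-25754378, Cldn1 at chr16:26356642-26371841 and Itgb4 at chr11:115974709-116008412.

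Each gene of the rule was then read in cells chosen by the other 4 alone, so that it did not choose the cells it was read in. Slc2a1 was found in 7 of 30 such FACS cells (23.3%, interval 9.93 to 42.3) and in 22 of 71 such bead cells (31.0%, interval 20.5 to 43.1). In the other mesenchymal cells its shares were 2.67% and 4.46%. Casq2 was found in 65.0% and 42.9% of the cells chosen without it, against 4.64% and 2.70% of mesenchymal cells. Cldn1 was found in 75.0% and 65.9%, against 12% and 16.8%. Itgb4 was found in 22.6% and 29.0%, against 1.34% and 2.73%, and Msln in 14.7% and 9.76%, against no mesenchymal cell. Each of the 5 genes was thus more frequent, in both libraries, in cells chosen by the rest of the rule than in mesenchymal cells.

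The level of Sfrp5, a secreted Wnt inhibitor that the rule did not use, changed across the edge of the rule. Cells just outside it, with 1 UMI of the 5 genes and no exclusion gene, numbered 101 and 298 and had Sfrp5 at 115 and 190 CPM. Cells with at least 2 UMIs of a single gene, which lack another of the 5 genes, numbered 55 and 58 and had 420 and 469 CPM. Just inside the rule, the 2 FACS cells and 22 bead cells with 2 UMIs had 420 and 573 CPM. Cells with 6 or more UMIs had 1334 and 1498 CPM. The cells left out for lack of another gene therefore had Sfrp5 near the level of those just inside the rule. These values describe the edge and have no test.

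The perineurial-like cells were compared with the other mesenchymal cells of the same library, which were 149 cells in the FACS library and 108 in the bead library. These had at least 2 UMIs over at least 2 genes of the epineurial list (Pcolce2, Dpp4, Dpt, Ly6c1, Comp) or of the endoneurial list (Etv1, Wif1, Sox9, Osr2, Meox1), and none of the exclusion genes. They were 97 epineurial-like and 51 endoneurial-like cells in the FACS library, with a cell that met both rules beside them, and 20 and 88 in the bead library. Their median depths were 2831 and 2082 UMIs. A gene was called where its CPM differed by at least 3-fold the same way in both libraries and it had at least 20 UMIs in all. Of 7434 genes read, 151 were higher (2.03% of the genes) and 105 were lower (1.41%) in the perineurial-like cells. As the cells were chosen on expression, these differences are descriptions of the chosen cells.

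**Figure D1:**
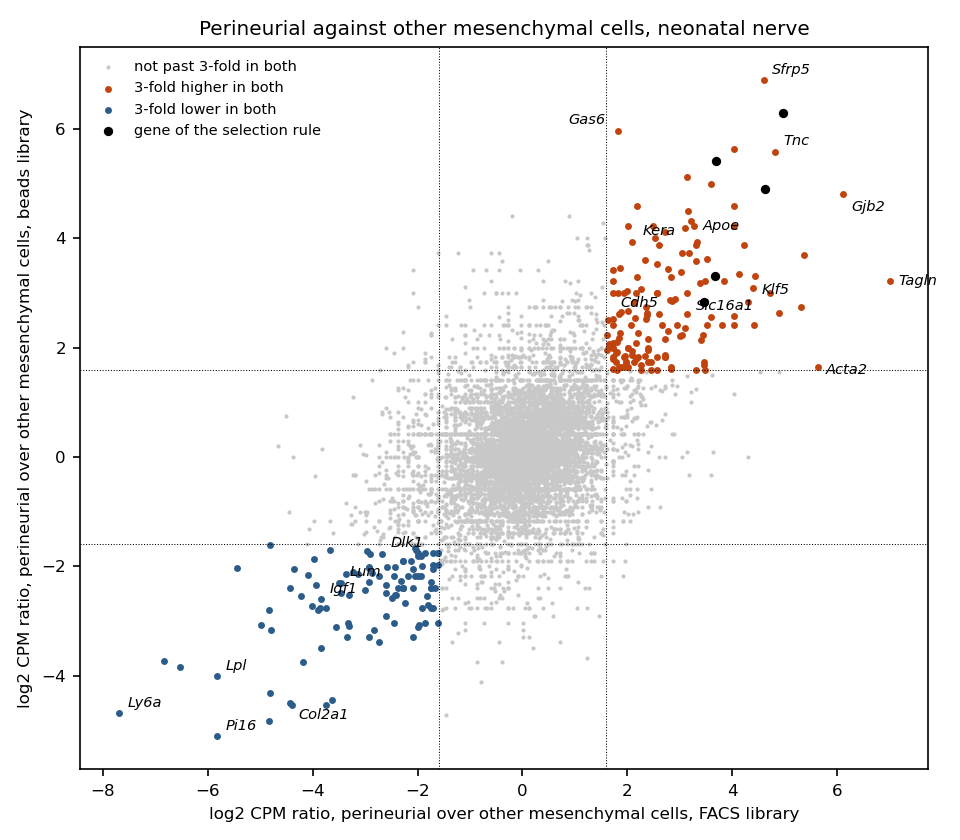
Log2 ratio of CPM between perineurial-like and other mesenchymal cells in the FACS library (horizontal axis) and the bead library (vertical axis), 1 point a gene, with called genes coloured. The 151 higher genes lie in the upper right and the 105 lower genes in the lower left, and Sfrp5, Tnc, Gjb2 and Apoe are among the named genes at the upper right.

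Sfrp5, Tnc, Kera and Apoe were among the 20 higher genes with the largest ratios. Sfrp5 had 155 UMIs in 31 of 35 FACS cells and 179 UMIs in 50 of 84 bead cells, which were 974 and 914 CPM. The mesenchymal cells had 21 and 2 UMIs. The ratio was 24.3 (interval 15.3 to 40.4) in the FACS library and 120 (interval 32.6 to 995) in the bead library. Schwann cells, with 68.0 and 81.5 CPM of Sfrp5, lay far below the perineurial-like cells in both libraries. Sfrp5 lies at chr19:42197971-42202252 on the minus strand.

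Of 25 collagen and matrix genes, Tnc and Fmod were higher (beside 2.03% of all genes) and Lum and Vcan were lower (beside 1.41%). The median log2 ratios of the list were -0.48 and -0.40. Tnc encodes tenascin-C, an adhesion-modulating matrix protein of developing and wounded tissue. It had 51 and 72 UMIs in the perineurial-like cells and 6 and 2 in the mesenchymal cells, a ratio of 28.0 (interval 12 to 79.8) and of 48.1 (interval 12.8 to 405). Kera, keratocan, is a small proteoglycan that spaces collagen fibrils. Its 64 and 69 UMIs in perineurial-like cells stood against 21 and 6, and the ratios were 10.03 (interval 6.04 to 17.3) and 15.4 (interval 6.71 to 43.3). Apoe, the lipid carrier apolipoprotein E, was found in 94.3% and 88.1% of the perineurial-like cells at 2558 and 2725 CPM. Mesenchymal cells had 264 and 145 CPM of Apoe, and the ratios were 9.71 (interval 7.98 to 11.9) and 18.8 (interval 13.5 to 26.8). Schwann cells, which were also rich in Apoe at 1782 and 1761 CPM, were nearer to the perineurial-like cells for this gene.

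Of 22 tight junction genes, 7 had enough UMIs, and of these 4 were higher (beside 2.03% of all genes) and 0 lower, with median log2 ratios of 2.01 and 2.21, beside 0.04 and 0.10 over all genes read. Among the 4 were Cldn1, which the rule used, the scaffold protein Tjp1, which ties claudins to actin, and F11r, the junctional adhesion molecule A. The direction of Cldn1 was fixed by the rule, and the count and the medians include it. F11r had 34 and 59 UMIs in perineurial-like cells against 14 and 17, a ratio of 7.99 (interval 4.18 to 16.1) and of 4.64 (interval 2.67 to 8.48). Tjp1 had 22 and 24 UMIs against 18 and 5. In endothelial cells, which also build sealing junctions, F11r reached 227 and 285 CPM, close to the 214 and 301 CPM of the perineurial-like cells.

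Among 10 genes of other junctions, 3 were higher (beside 2.03% of all genes) and 0 lower. Gjb2, the gap junction protein connexin 26, had 21 UMIs in 8 FACS cells and 21 UMIs in 11 bead cells, and 1 UMI in the mesenchymal cells of each library. The ratios were 69.1 (interval 11.1 to 2858) and 28.0 (interval 4.51 to 1160), and their width comes from the single UMIs. In the FACS library 9 of the 21 Gjb2 UMIs were in 1 cell. Without that cell the FACS ratio was 40.5 (interval 5.99 to 1731). Cdh5, VE-cadherin, is known as the adherens junction protein of endothelium. It was found in 45.7% of the FACS cells and 32.1% of the bead cells, against 6.04% and 4.63% of mesenchymal cells. Endothelial cells had it in 88.9% and 73.7% of cells, at median depths of 2684.5 and 1967 UMIs. The CPM ratios of Cdh5 over mesenchymal cells were 7.48 (interval 3.55 to 16.8) and 7.44 (interval 3.29 to 19.7). The list of 8 endothelial genes summed to 195 and 265 CPM in the perineurial-like cells, with a UMI of 5 of the 8 genes in each library, and 25 of its 31 and 39 of its 52 UMIs were of Cdh5 itself. Cldn5 was at 0 in both libraries, and Pecam1 was set to 0 by the rule. The part of endothelial RNA in the Cdh5 values was not tested. Jup, plakoglobin, was the other junction gene that was higher.

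Of 12 matrix adhesion genes read, which bind the cell to its basement membrane and matrix, 4 were higher (beside 2.03% of all genes), 0 were lower and 8 were not called. The 4 were Itgb4 of the rule, its partner subunit Itga6, the laminin receptor subunit Itga7 and the tetraspanin Cd151, which binds laminin-binding integrins. The count thus includes Itgb4, whose direction the rule fixed. Itga6 had 34 and 51 UMIs against 29 and 19, a ratio of 3.86 (interval 2.28 to 6.56) and of 3.59 (interval 2.08 to 6.43). Schwann cells, which also rest on a basement membrane, had 961 and 959 CPM of Itga6, above the 214 and 260 CPM of the perineurial-like cells. Of 15 basement membrane genes, Col4a1, a chain of collagen IV, and Agrn, the proteoglycan agrin, were higher, and Col15a1 was lower (beside 1.41% of all genes). Col4a1 had 271 and 249 UMIs against 256 and 110, with ratios of 3.48 (interval 2.93 to 4.15) and 3.02 (interval 2.41 to 3.82). Its partner chain Col4a2 had ratios of 3.05 and 1.98 and was not called.

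Of 17 transporters and exchangers, 4 were higher (beside 2.03% of all genes) and 3 lower (beside 1.41%). The higher genes were Slc2a1 of the rule, the monocarboxylate transporter Slc16a1, which carries lactate, the taurine transporter Slc6a6 and the GABA and betaine transporter Slc6a13. The direction of Slc2a1 was fixed by the rule. Slc16a1 had 118 UMIs in 29 of 35 FACS cells and 155 UMIs in 62 of 84 bead cells, at 742 and 791 CPM. Mesenchymal cells had 84.0 and 99.4 CPM, and the ratios were 8.83 (interval 6.19 to 12.8) and 7.96 (interval 5.23 to 12.6). In endothelial cells of these libraries Slc16a1 was at 8.71 and 6.17 CPM, so the lactate transporter was far lower in the vessel cells than in the perineurial-like cells. Among the lower genes were the glutamate transporter Slc1a3 and the lipid transporter Abca8a. With 1 to 23 UMIs of each in a library, these rest on few molecules.

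**Figure D2:**
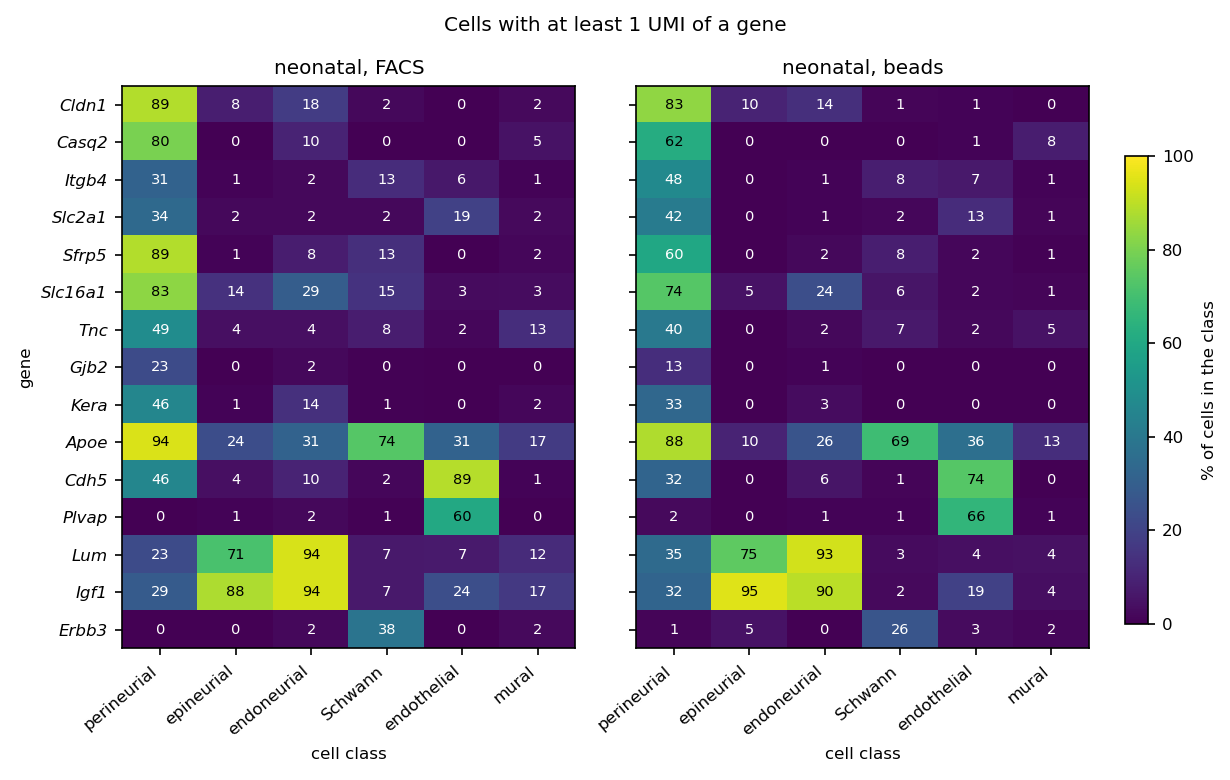
Percent of cells (colour and printed value) with at least 1 UMI of each gene (rows) in the perineurial-like cells and 5 other cell classes (columns) of the FACS and bead libraries. Slc16a1 and Sfrp5 are highest in the perineurial-like cells of both libraries, whereas Cdh5 is higher in endothelial cells, at 88.9% and 73.7%, than in perineurial-like cells.

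Contractile genes were in part higher. Of 15 read, Acta2, Tagln, Myh9 and Casq2 were higher (beside 2.03% of all genes) and none was lower. Casq2 was used by the rule, so its direction was fixed by that choice. The median log2 ratios of the 15, with Casq2 among them, were 1.63 and 1.29. Myh9, the heavy chain of non-muscle myosin, had 36 and 27 UMIs against 33 and 8. The call of Acta2, smooth muscle actin, rested on single cells. In the FACS library 18 of its 30 UMIs were in 1 cell, and in the bead library the ratio without the top cell was 2.25 (interval 0.437 to 14.5), under 3-fold. Tagln, the actin-binding protein transgelin, had 39 and 7 UMIs, against 1 in the mesenchymal cells of each library. Mural cells, whose Acta2 level was 3360 and 8273 CPM, are the vessel cells rich in these genes. The mural list of 7 markers had 33 and 15 UMIs in all over the perineurial-like cells, and its part in the contractile values was not tested.

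Among 30 transcription factors, Twist1, Klf5, Sox4 and Bnc2 were higher (beside 2.03% of all genes) and Klf4, Osr2 and Meox1 were lower (beside 1.41%). Osr2 and Meox1 were used to choose the endoneurial-like cells, so their direction was fixed by that choice. Klf5, a Kruppel-like factor of epithelia and smooth muscle, had 32 UMIs in 17 of 35 FACS cells and 32 UMIs in 24 of 84 bead cells, against 5 and 5. Its ratios were 21.1 (interval 8.15 to 69.2) and 8.55 (interval 3.31 to 28.1). Klf4 went the other way, with 4 and 9 UMIs against 99 and 41. The 2 Kruppel-like factors thus lay on opposite sides of the same comparison.

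Several of the lower genes belong to the epineurial or endoneurial classes with which the cells were compared. Ly6a, the Sca-1 antigen, had 1 and 3 UMIs in the perineurial-like cells against 679 and 103 in the mesenchymal cells, a level 206-fold (interval 36.9 to 8161) and 25.7-fold (interval 8.55 to 127) lower. All but 3 of the FACS and all of the bead Ly6a UMIs of the mesenchymal cells were in epineurial-like cells. Pi16, a marker of adventitial fibroblasts, had 1 UMI in each library against 186 and 46. Fst, the activin inhibitor follistatin, had 2 and 4 UMIs against 188 and 37. Lum, the collagen-binding proteoglycan lumican, remained detected, with 31 and 116 UMIs, and was 11-fold (interval 7.71 to 16.3) and 4.91-fold (interval 4.03 to 6.02) lower. Igf1, insulin-like growth factor 1, was 14.2-fold (interval 9.59 to 22.1) and 6.04-fold (interval 4.62 to 8.01) lower. The fibrillar collagens Col1a1, Col1a2 and Col3a1 were not called, and the 3 had log2 ratios between -0.04 and -0.68. A list of 25 collagen and matrix genes was 11.3% and 8.92% of all UMIs in the perineurial-like cells and 14.0% and 12.2% in the mesenchymal cells.

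The epineurial-like and endoneurial-like cells gave different neighbours. Against epineurial-like cells 63 of 5601 genes were higher (1.12%) and 160 lower (2.86%). Against endoneurial-like cells 204 of 6247 were higher (3.27%) and 107 lower (1.71%). The higher lists shared 25 genes, which were 39.7% of the first and 12.3% of the second, and the lower lists shared 9, which were 5.63% and 8.41%. The bead library held only 20 epineurial-like cells with 29154 UMIs, which limits the first comparison. Casq2 and Cldn1 of the rule and 6 other genes passed 3-fold in both libraries over each of the epineurial-like, endoneurial-like, Schwann, endothelial and mural cells. The 6 were Sfrp5, Slc16a1, Kera, the chemokine scavenger receptor Ackr3, the tight junction-associated adhesion protein Cxadr and the large matrix protein Svep1. In the small bead epineurial-like class a gene at 0 was set to 3 UMIs, so only genes of high level could pass against it. Casq2, Sfrp5, Kera and Cxadr were at 0 there and passed as bounds. Gjb2, at 0 in the epineurial-like cells of both libraries, had a bead bound of 1.04 and did not pass. Cxadr was found in 48.6% and 50% of perineurial-like cells at 289 and 413 CPM. It was at 0 in the epineurial-like cells of both libraries and at 92.0 and 94.6 CPM in the endoneurial-like cells. Ackr3 was at 245 and 296 CPM, and Svep1 at 440 and 209 CPM. These 3 were named because they passed this comparison and not by the rule for named genes.

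Hedgehog target genes were read because Schwann cells of the nerve make Desert hedgehog. Dhh was found in 41.1% of FACS Schwann cells and 26.5% of bead Schwann cells, and in 1 perineurial-like cell of each library. Gli1, Ptch1 and Hhip, which are known to rise when the pathway is active, summed to 383 CPM (interval 293 to 493) and 311 CPM (interval 238 to 400) in the perineurial-like cells. Endoneurial-like cells had 117 and 108 CPM, and the ratios were 3.28 (interval 2.06 to 5.32) and 2.90 (interval 1.79 to 4.81). Epineurial-like cells had 233 and 206 CPM, and the ratios were 1.65 (interval 1.14 to 2.38) and 1.51 (interval 0.656 to 4.28). The 3 genes were thus about 3-fold above the endoneurial-like cells in both libraries. The distance to epineurial-like cells was smaller, was within counting error in the bead library, and in the FACS library depended on which targets were summed, so it is not read as a difference.

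At least 1 of the 3 target genes was found in 24 of 35 FACS cells (68.6%, interval 50.7 to 83.1) and in 36 of 84 bead cells (42.9%, interval 32.1 to 54.1). When each cell was thinned to 500 UMIs, the shares were 14.3% and 13.4%, against 8.42% and 10% of epineurial-like cells and 1.96% and 5.81% of endoneurial-like cells. Schwann cells at that depth had 1.13% and 0.855%. Against the mesenchymal cells as a whole, 0 of 9 hedgehog genes were called in either direction. Hhip, a membrane protein that binds and restrains hedgehog ligands, had ratios of 1.99 (interval 1.17 to 3.31) and 7.21 (interval 2.74 to 24.0), and it was at 0 in bead endoneurial-like cells. Shh and Ihh had no UMI in the perineurial-like cells, and a floor of 3 cells allows up to 8.57% of the 35 FACS cells and 3.57% of the 84 bead cells to hold a UMI, which does not limit the cells that express them.

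**Figure D3:**
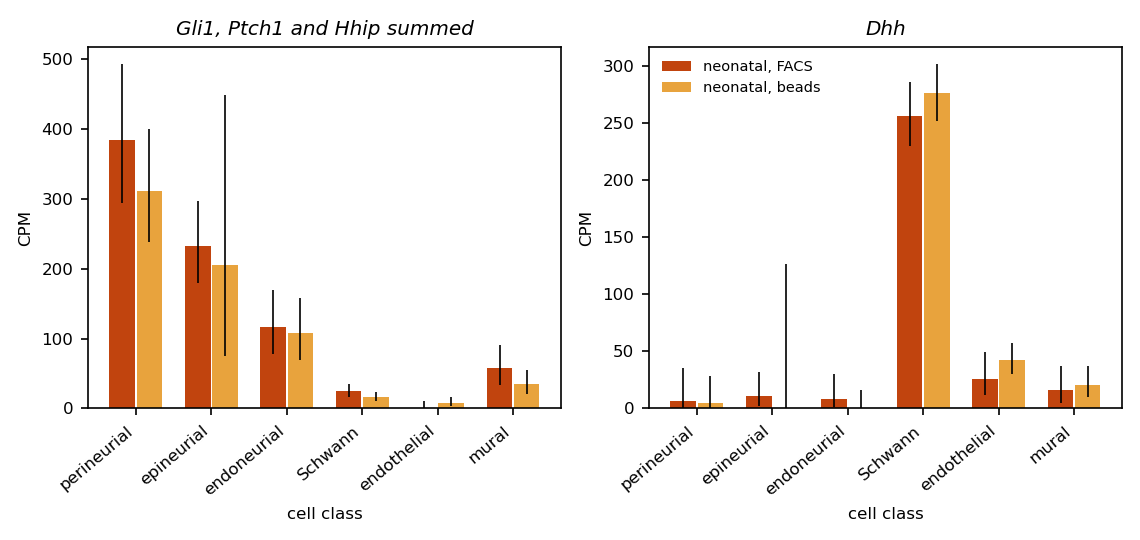
Summed CPM of the hedgehog targets Gli1, Ptch1 and Hhip (left) and CPM of the ligand Dhh (right) by cell class, with bars for the FACS and bead libraries and exact Poisson 95% intervals. The targets reach 383 and 311 CPM in perineurial-like cells and 117 and 108 CPM in endoneurial-like cells, while Dhh is higher in Schwann cells than in the other classes drawn.

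Of 16 Wnt pathway genes, Wnt6, Sfrp1, Sfrp5 and Rspo1 were higher (beside 2.03% of all genes) and Sfrp4 was lower (beside 1.41%). Wnt6 is a ligand, Sfrp1 and Sfrp5 are secreted inhibitors that bind Wnt proteins, and Rspo1 strengthens Wnt signals at the receptor. Sfrp1 had 270 and 252 UMIs against 200 and 58, with ratios of 4.44 (interval 3.69 to 5.36) and 5.80 (interval 4.35 to 7.86). Over the epineurial-like cells alone its ratios were 3.20 and 2.08. Wnt6 had 14 and 16 UMIs against 4 and 4, and Rspo1 had 8 and 18 against 1 and 0. Schwann cells had more Wnt6, at 108 and 214 CPM, and the ratios to them were 0.815 and 0.382. Sfrp4 ran opposite to its relatives, with 6 and 4 UMIs against 285 and 36. Among 18 TGF-beta and BMP genes, Ltbp1, which holds latent TGF-beta in the matrix, was higher, and Bmp7 and Fst were lower. The same shares of all genes stand beside these counts.

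Ligands were read over a list of 143 that the study chose on injured nerve. Of these, 50 had no UMI in the 119 cells, and 68 were detected in at least 2% of them, which is 3 cells. With every cell thinned to 500 UMIs, 31 reached 2% in place of 68. By library, 74 reached 2% in the FACS cells, where 1 cell of 35 is enough, and 68 in the bead cells, where 2 of 84 are enough, and 58 did so in both. Of 63 ligands with enough UMIs for the comparison with mesenchymal cells, 7 were higher (beside 2.03% of all genes) and 7 were lower (beside 1.41%). The higher ligands were Edn3, Efna4, Gas6, Rspo1, Sema3d, Sfrp1 and Sfrp5. The lower ligands were Bmp7, Ccl2, Cxcl12, Igf1, Nov, Ptn and Sfrp4. Sema3d, an axon guidance protein, had 46 UMIs in 25 of 35 FACS cells and 55 UMIs in 26 of 84 bead cells, against 30 and 6. Its ratios were 5.05 (interval 3.12 to 8.28) and 12.2 (interval 5.28 to 34.8). Over the epineurial-like cells alone they were 3.18 and 2.05. Gas6, the ligand of the TAM receptor kinases, was at 371 and 240 CPM and at 105 and 3.82 CPM in mesenchymal cells. Epineurial-like cells had 193 and 0 CPM of Gas6, and endothelial cells had 157 and 163 CPM. Edn3, endothelin 3, rested on 8 and 6 UMIs, and Efna4, an ephrin, on 13 and 7.

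Of the ligands in at least 2% of the cells, 23 had in both libraries a larger share of perineurial-like than of mesenchymal, Schwann, endothelial or mural cells. No share over all genes was set beside this count, so it is not read as a result about ligands. Among them were the guidance cue Ntn1 in 30.3% of the 119 cells and the Notch ligand Jag1 in 36.1%. The cytokine Il33 was found in 31.1% and the midkine gene Mdk in 71.4%. The neurotrophin Ntf3, in 3.36%, rested on few cells, 5.71% of the FACS cells and 2.38% of the bead cells. Fstl1, a secreted glycoprotein, was found in 99.2%. Median depths were 3976 and 2048 UMIs in the perineurial-like cells and 2831 and 2082 in the mesenchymal cells. Schwann cells were shallower, at 2263.5 and 1159 UMIs, as were endothelial cells at 2684.5 and 1967 and mural cells at 2109 and 1198. The part of depth in these shares was not tested. A larger share was not always a higher level, since Fstl1 had CPM ratios of 0.87 and 0.98 to mesenchymal cells.

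Perineurial-like cells of the uninjured adult nerve were chosen by the same rule. They were 66 of 1945 filtered barcodes (3.39%, interval 2.63 to 4.30), with 137421 UMIs and a median of 1763 UMIs per cell. At 3 DPI the rule chose 46 of 2281 barcodes (2.02%). Of these 46, 17 also met the epineurial rule and 23 the endoneurial rule, so the 3 DPI values are given only beside others. The uninjured cells had more of the rule's genes, at 5429 CPM summed against 1370 and 1751, and all 5 were found in 9 of 66. On the relative measure used above, the mesenchymal list led in 47 of the 66 uninjured cells, the endothelial list in 10 and the mural list in 6. The endothelial list summed to 822 CPM. The part of these other lists in the values below was not tested.

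Both neonatal libraries were compared with the same uninjured library, so the 2 comparisons share their control. Of 4712 genes read, 268 were 3-fold higher (5.69%) and 216 were 3-fold lower (4.58%) in both neonatal libraries. The medians over all genes were 0.05 and 0.07 on the log2 scale.

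Imprinted growth genes had the highest median of the gene lists read against the uninjured cells. Of 11 with enough UMIs, 8 were higher in neonatal cells (beside 5.69% of all genes) and 0 lower, with median log2 ratios of 2.91 and 3.17. The 8 were H19, Igf2, Dlk1, Mest, Peg3, Plagl1, Meg3 and Grb10. Igf2, the fetal insulin-like growth factor at chr7:142650766-142666816, was at 4073 CPM in the FACS cells and 3746 CPM in the bead cells. It had 5 UMIs in the uninjured cells (36.4 CPM) and 4 at 3 DPI (11.2 CPM). Dlk1, a Notch-related inhibitor of differentiation, had 164 and 324 UMIs and none in the uninjured cells, and was at least 47.2-fold and at least 75.7-fold higher. H19, a long noncoding RNA, had 3665 and 4558 CPM against 378. The other mesenchymal cells differed in the same direction. Neonatal mesenchymal cells had 7361 and 5411 CPM of Igf2 against 53.2 in uninjured mesenchymal cells, and Dlk1 was 6.36-fold and 3.40-fold lower in neonatal perineurial-like cells than in their mesenchymal neighbours.

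**Figure D4:**
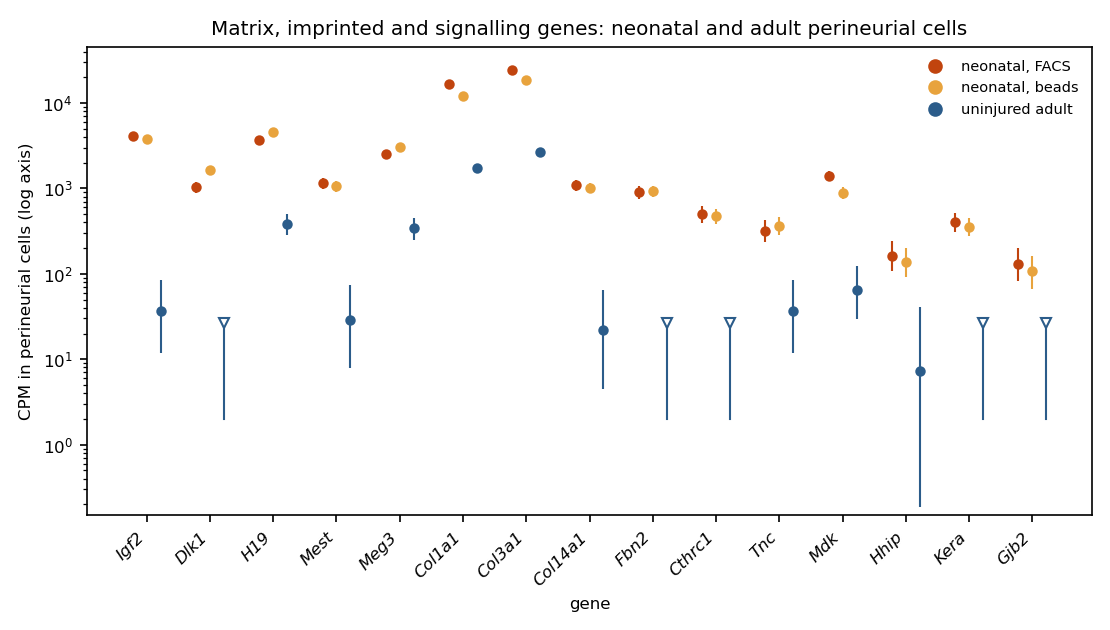
CPM on a log axis of genes higher in neonatal than in uninjured perineurial-like cells, with a point for each neonatal library and the uninjured library, exact Poisson 95% intervals, where an open triangle marks the upper end of the interval of a gene with 0 UMIs. Igf2 stands at 4073 and 3746 CPM in the neonatal libraries and at 36.4 CPM in the uninjured library.

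Of 24 collagen and matrix genes, 9 were higher beside 5.69% of all genes (Col1a1, Col1a2, Col3a1, Col5a1, Col5a2, Col14a1, Fbn2, Tnc and Vcan) and 0 lower. Col1a1 was at 16934 and 12060 CPM against 1717 in uninjured cells and 6709 at 3 DPI. Its ratios were 9.86 (interval 8.63 to 11.3) and 7.02 (interval 6.14 to 8.06). Col14a1, a fibril-associated collagen, had 174 and 199 UMIs against 3, a ratio of 50.1 (interval 16.9 to 245) and of 46.5 (interval 15.7 to 228). Fbn2, the fibrillin of developing tissue, had 143 and 181 UMIs against 0 and was at least 41.2-fold and at least 42.3-fold higher. The list took 4.42% of the UMIs of uninjured perineurial-like cells. In uninjured mesenchymal cells its share was 12.8%, so the difference between the classes was smaller in the neonatal libraries than in the uninjured library.

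Some genes of the neonatal cells had no UMI in uninjured perineurial-like cells. Gjb2 had 21 and 21 UMIs and was at least 6.05-fold and at least 4.91-fold higher. Kera, which lies at chr10:97606879-97613692, had 64 and 69 UMIs and was at least 18.4-fold and at least 16.1-fold higher. Kera also had no UMI in uninjured mesenchymal, Schwann or endothelial cells. Tnc had 5 UMIs in the uninjured cells, all in 1 cell, and 160 UMIs in 23 of 46 cells at 3 DPI. At 3 DPI its level was 446 CPM, beside 321 and 367 CPM in the neonatal libraries. Mesenchymal cells of the injured nerve also had Tnc, at 338 CPM, whereas those of the neonatal nerve had 11.5 and 7.64 CPM.

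Of 5 hedgehog genes with enough UMIs, 2 were higher (beside 5.69% of all genes), Hhip among them, and 0 lower. Hhip had 26 and 27 UMIs against 1 in the uninjured cells and 1 at 3 DPI, with ratios to uninjured of 22.5 (interval 3.69 to 921) and 18.9 (interval 3.12 to 775). Gli1 was not called, with 176 and 117 CPM against 124. Gli1, Ptch1 and Hhip together were at 131 CPM in uninjured cells and at 131 CPM at 3 DPI.

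Of 15 transporters and exchangers read against the uninjured cells, Atp1b1 was higher and 3 were lower (beside 4.58% of all genes), namely Slc2a1 of the rule and the pumps Abcb1a and Abcg2. Abcb1a, the drug efflux pump P-glycoprotein, had no UMI in the 35 FACS and 84 bead cells. In the uninjured cells it had 85 UMIs in 38 of 66 cells, at 619 CPM, and the neonatal levels were at least 32.8-fold and at least 40.4-fold lower. The pump was measured in other cells of the same libraries, since neonatal endothelial cells had 82 and 179 Abcb1a UMIs, at 238 and 184 CPM. Abcg2, a further efflux pump, had 5 and 6 UMIs against 97, and was 22.5-fold (interval 9.30 to 70.7) and 23.1-fold (interval 10.2 to 64.4) lower. Both pumps are also endothelial genes, and in uninjured endothelial cells their levels were 1004 and 799 CPM. The uninjured perineurial-like cells held more of the endothelial list, at 822 CPM in sum, and its part in the values of the pumps was not tested. Slc2a1 of the rule was 6.91-fold and 5.67-fold lower in the neonatal cells.

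Of 9 tight junction genes, 0 were higher and 4 lower (Cldn5, Tjp1, Mpzl2 and Perp), beside 4.58% of all genes. Of 13 matrix adhesion genes, 0 were higher and 5 lower (Itga6, Itga7, Dst, Bcam and Itgb4 of the rule). Itga6 was 4.32-fold (interval 2.94 to 6.51) and 3.55-fold (interval 2.55 to 5.02) lower. Itga7 had 6 and 13 UMIs against 64. Cldn1 was lower by less than the threshold, at 679 and 648 CPM against 1281. Among basement membrane genes Ntn4, the laminin-related netrin 4, had 1 and 1 UMI against 58, a level 67.1-fold (interval 11.6 to 2697) and 82.7-fold (interval 14.3 to 3322) lower. Tjp1, Itga6 and Itga7, which the rule did not use, were thus higher in neonatal perineurial-like cells than in mesenchymal cells. They were higher again in the uninjured perineurial-like cells. Neonatal endothelial cells had 200 and 192 CPM of Tjp1, neonatal mural cells had 173 and 198 CPM of Itga7, and Cldn5 is on the endothelial list. The part of endothelial and mural RNA in the uninjured values was not tested.

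**Figure D5:**
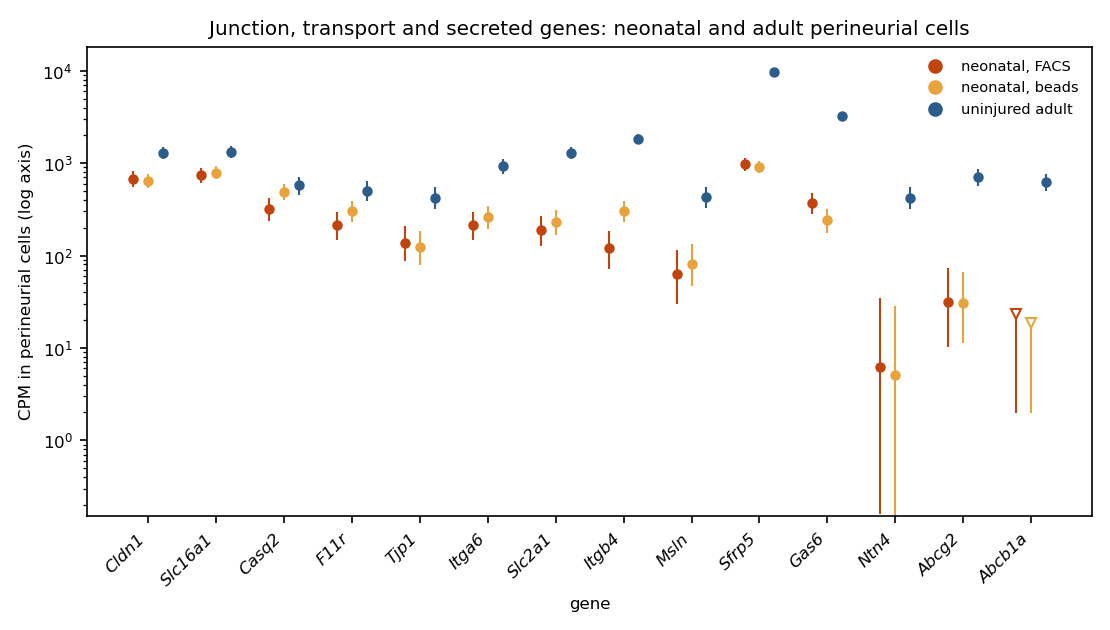
CPM on a log axis of junction, transport and secreted genes, called or not, in neonatal and uninjured perineurial-like cells, with a point for each library, exact Poisson 95% intervals and open triangles at the upper end of the interval where no UMI was found. Sfrp5 is at 974 and 914 CPM in the neonatal libraries and 9751 CPM in the uninjured library, and Abcb1a has no neonatal UMI.

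Sfrp5 was also lower in the neonatal cells. Its 1340 UMIs in 57 of 66 uninjured cells were 9751 CPM, and the neonatal levels were 10-fold (interval 8.47 to 11.9) and 10.7-fold (interval 9.13 to 12.5) lower. At 3 DPI Sfrp5 was at 876 CPM and was found in 14 of 46 cells. Gas6 was 8.71-fold and 13.5-fold lower in neonatal cells. Gpm6a, a neuronal membrane glycoprotein gene, had no UMI in neonatal perineurial-like cells and 57 UMIs in 26 of 66 uninjured cells. Uninjured mesenchymal cells held 1 Gpm6a UMI. The ligands Mdk, Igf2 and Figf went the other way. Mdk was at 1414 and 888 CPM against 65.5, with ratios of 21.6 (interval 11.2 to 47.8) and 13.6 (interval 6.98 to 30.2). The lower hemoglobin genes rested on a single uninjured barcode, in which hemoglobin was 45.8% of 802 UMIs.

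The genes of adult perineurial-like cells were followed back to the neonatal nerve. In the uninjured library 606 genes outside the rule were 3-fold higher in perineurial-like than in mesenchymal cells. Of the 440 of them with enough UMIs in the neonatal comparison, 76 were also higher there (17.3%, beside 2.03% of all genes) and 0 were lower. Of 430 that could be compared by age, 108 were lower in neonatal cells (25.1%, beside 4.58% of all genes) and 1 was higher. The reverse set of 577 genes lower in the adult cells had 202 that could be compared by age, of which 98 were higher in neonatal cells (48.5%, beside 5.69%) and 9 lower. The comparisons by age share the uninjured perineurial-like cells with the choice of the sets, which favours these directions. The 146 genes outside the rule that were higher than in neonatal mesenchymal cells were divided by age as well. Of 140 that could be read, 25 were lower than in the adult cells (beside 4.58% of all genes), 13 were higher (beside 5.69%) and 102 were neither. This set was chosen on the same neonatal perineurial-like cells, which favours the higher direction.

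Mki67 or Top2a, genes of cycling cells, had a UMI in 5 of 35 FACS cells (14.3%, interval 4.81 to 30.3) and in 5 of 84 bead cells (5.95%, interval 1.96 to 13.3), together 8.40% (interval 4.10 to 14.9). The share was 3.03% with further exclusion genes in the rule and 3.09% without the 5% of barcodes with the most UMIs, and 13 of the 21 FACS Top2a UMIs were in 1 cell. Free RNA was not subtracted, and no background share was set, so a UMI is not read as a dividing cell. Neonatal mesenchymal cells had 8.17% and Schwann cells 17.8%. In cells thinned to 500 UMIs the shares were 2.56%, 3.16% and 11.9%. None of the 66 uninjured perineurial-like cells had a UMI of either gene, and a floor of 3 cells allows up to 4.55% of cells to hold one. Over 8 cycling genes, 5 cells of each library had at least 3 UMIs. In these, Sfrp5 was at 785 and 1181 CPM, beside 1017 and 891 CPM in the rest, so Sfrp5 was present in the cells with cycling genes as well. Apoe, like Sfrp5, was lower in them in the FACS library and higher in the bead library. Casq2, Cldn1 and Gjb2 were lower in them in both libraries, with Cldn1 at 443 and 394 CPM beside 732 and 670 CPM in the rest.

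The 2 preparations differed in genes that were picked after their values were seen. Fos, an immediate early gene, had 6 UMIs in the FACS cells and 193 in the bead cells, at 37.7 and 985 CPM, and mesenchymal cells moved the same way, with 296 and 2056 CPM. Egr1 was at 157 and 944 CPM. Hbb-bs was at 6.29 and 301 CPM. The part of the preparation in these values was not tested.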

How the data were processed

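Drop-seq measured 4 libraries of 1 sample each, of which 2 were neonatal. Following the Drop-seq Alignment Cookbook, the authors built gene by barcode matrices and deposited their raw UMI counts, neither normalized nor filtered. The build was mm10 per the labels, and the sources used here do not give the aligner's version. The files hold 2500 (FACS), 6200 (beads), 2000 (uninjured) and 2500 (3 DPI) barcodes. No doublet caller was run, and removing the 5% of barcodes with the most UMIs was tried instead. Free RNA was not subtracted.

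The deposited counts were summed over the cells of a class with Python 3.11.15, numpy 2.4.6, scipy 1.17.1 and pandas 2.3.3. CPM had exact Poisson intervals, and ratios of CPM had exact conditional binomial intervals. A class at 0 UMIs was set to 3 UMIs over the class, and a ratio against it is a lower bound. A gene needed 20 UMIs over the classes compared, and a call needed 3-fold the same way in both neonatal libraries. For equal depth, cells were thinned to 500 UMIs and shallower cells were left out. The calling was tested on simulated data. Gene positions are those of GENCODE M21 (GRCm38, the same assembly as mm10).

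Genes were named by this rule: the rule's own genes, the 20 higher and 10 lower genes with the largest smaller ratio against mesenchymal cells, 10 of each against uninjured cells, the called and the 4 highest genes of each list, and the 15 highest ligands. Not every gene so chosen is printed, and genes named on other grounds are said to be so. The cells, gene lists and comparisons were chosen with earlier results of these data known. The study chose the ligand list on injured nerve of the same series. All libraries gave 1 sample per group, so no p-value is given. Some genes counted in the lists are not reported here by name, and no sequence is printed.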

Additional observations from a re-analysis of the deposited data

How the results depend on the processing

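No paired analysis was possible because each group was 1 sample and no result came from a test. The 94 named called genes were read under 20 other settings and 2 more added after seeing the data. They gave 1793 values, of which 0 reversed and 110 left their counting interval. Each value was the smaller log2 ratio of the 2 libraries, set to 0 where they went opposite ways. It counted as reversed only where every library read changed direction, so a change in 1 of the 2 libraries was not counted. The settings of fold and of minimum UMIs could not change a value. A gene gave a value only where enough UMIs were left to read it. Keeping a direction is not keeping a call. Of the 151 genes higher than in mesenchymal cells, 22 (14.6%) were still called at 500 UMIs and 62 (41.1%) with the further exclusion genes given below. Without the 5% of barcodes with the most UMIs 77 (51.0%) were still called, and at 2-fold 151 (100%) were.

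The number of cells, 119 in the main setting, was 66 when cells with Plvap, Esam, Cdh5, Erbb3, Cdh19, Ngfr, Aif1, Rgs5 or Cd52 were also left out, 76 without Casq2 in the rule and 57 without Cldn1. With the further exclusion genes, 90 genes were higher than in mesenchymal cells in place of 151, 162 were higher and 126 lower than in uninjured cells in place of 268 and 216, and 3.03% of cells had Mki67 or Top2a in place of 8.40%. Without Cldn1 in the rule, 141 genes were higher than in uninjured cells. Without the 5% of barcodes with the most UMIs, 175 genes were higher than in uninjured cells and 3.09% of cells had Mki67 or Top2a.

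At 500 UMIs per cell, 44 genes were higher and 28 lower than in mesenchymal cells, 66 higher and 45 lower than in uninjured cells, 31 ligands reached 2% and 2.56% of cells had Mki67 or Top2a. Far fewer genes had enough UMIs at that depth, 1746 in place of 7434 and 818 in place of 4712. With at least 50 UMIs, 77 genes were higher than in mesenchymal cells, and 97 were higher and 98 lower than in uninjured cells. With no minimum, 471 were lower than in uninjured cells. At 2-fold, 394 were higher and 297 lower than in mesenchymal cells, and 586 higher and 474 lower than in uninjured cells.

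Leaving out either neonatal library gave 35 to 84 cells, 178 to 181 genes higher and 140 to 338 lower than in mesenchymal cells, 220 to 230 higher and 271 to 298 lower than in uninjured cells, 68 to 74 ligands and 5.95% to 14.3% of cells with Mki67 or Top2a. Without the bead library, 338 genes were lower than in mesenchymal cells, and only the FACS library then set the call. Apart from the counts given here, the cause of these changes was not tested. The perineurial-like cells held 159085 and 195939 UMIs, and genes under the chosen minimum of 20 UMIs over the classes compared were left out of the counts, except where no minimum was set.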
